A study of Homo sapiens with 60 samples.

Results

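The mRNAs of aminoacyl-tRNA synthetases were followed in HT29 cells, a line from a human colorectal adenocarcinoma, that had been exposed for 24 h to vehicle or to an extract of medicinal plants. The members were chosen by gene symbol: 35 genes of the 60675 in the deposited count table, of which 19 encode cytosolic enzymes and 16 encode enzymes named as mitochondrial (symbols ending in 2). All 35 passed the filter on low counts, which left 16484 genes. The cytosolic group holds GARS1 and KARS1, which each serve both compartments, and the paired FARSA and FARSB, which encode the 2 subunits of a single enzyme.

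RNA-seq libraries (60 in all) came from 22 groups. Hot-water extracts were given at 20, 100 or 500 µg/mL, called low, medium and high dose. They were made from Aconiti Lateralis Radix Preparata (processed aconite root, here aconite), Bupleuri Radix (bupleurum), Cimicifugae Rhizoma (cimicifuga), Citri Unshius Pericarpium (citrus peel) and the mixed formulas Yijung-tang, Banhasasim-tang and Bojungikgi-tang, and the vehicle was 0.1% DMSO per the sample labels and 2% per the design text. Each dose of the first 6 and the vehicle had 3 libraries, whereas each dose of Bojungikgi-tang had 1. Nothing in the labels says that these 3 came from separate cultures, so the p-values speak only of the spread among the libraries, which may be technical. By their label numbers, aconite and bupleurum share a library set, as do cimicifuga and citrus peel, and Yijung-tang and Banhasasim-tang. All titles, of vehicle and extracts alike, carry the label BatchB, but by the sample codes vehicle is a set of its own. An extract and its library set thus cannot be told apart in a comparison with vehicle. The sample labels give a DMSO content for vehicle only, so a difference in DMSO, if there was one, cannot be told apart there either. The 18 comparisons with vehicle share the same vehicle libraries.

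Aminoacyl-tRNA synthetases join each amino acid to its matching transfer RNA, the step that fixes the meaning of the genetic code. Most amino acids are served by a cytosolic enzyme and by a separate enzyme, also encoded in the nucleus, that works in mitochondria. Several cytosolic enzymes sit together in the multisynthetase complex, and others act alone. Many cytosolic synthetase genes are known targets of ATF4, the transcription factor of the integrated stress response, which binds DNA together with C/EBP family partners at composite elements.

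The letters of such an element, TGATGNAA, were looked for on both strands in the promoter windows of RefSeq (GRCh38.p14), which run from 250 bases before to 50 bases after each start. Windows were found for 30 members, and YARS1, LARS1, VARS1, VARS2 and AARS2 had none. Of all 35116 windows, 3.62% held a match, and 4.46% of the 27305 genes had at least 1 such window. Among the members, 7 of 16 cytosolic genes and 1 of 14 mitochondrial genes had a match. The 8 stretches are shown because all 7 cytosolic carriers were among the genes called higher in aconite high against low dose, so they were picked by that outcome. Of the 16 cytosolic genes with a window, 12 were called higher there, 5 of them without a match. Of all genes tested, 5.81% were called higher. The part of the matches in these changes was not tested. Each stretch is 30 bases on the strand of the gene, with the matching letters in capitals. TTGCATCA is TGATGCAA read on the opposite strand.
GARS1, chr7:30594834-30594863, plus strand: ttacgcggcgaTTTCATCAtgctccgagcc
AARS1, chr16:70289675-70289704, minus strand: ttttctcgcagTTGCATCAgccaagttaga
CARS1, chr11:3057407-3057436, minus strand: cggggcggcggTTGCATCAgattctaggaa
NARS1, chr18:57621804-57621833, minus strand: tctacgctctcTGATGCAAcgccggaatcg
TARS1, chr5:33440956-33440985, plus strand: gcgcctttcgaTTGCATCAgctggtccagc
IARS1, chr9:92293692-92293721, minus strand: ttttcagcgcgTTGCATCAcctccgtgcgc
MARS1, chr12:57488053-57488082, plus strand: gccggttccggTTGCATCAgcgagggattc
YARS2, chr12:32756076-32756105, minus strand: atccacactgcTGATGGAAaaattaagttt

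Counted from the start base as 0, the first matching letter lay at -187 for AARS1, -33 for GARS1, -13 for IARS1, -4 for MARS1, -2 for CARS1, 2 for TARS1 and 14 for NARS1, and at -197 for YARS2. Apart from GARS1, the cytosolic carriers held the same 8 letters, read on either strand. The match is a description of these windows and not a site. Longer upstream stretches are given for a carrier and for SARS1, the gene with the largest change and no match, which was chosen for this after its values were seen. Both end before the start that either annotation gives. The AARS1 stretch is 213 bases with 57.7% G or C, and the SARS1 stretch 250 bases with 66.8%.
AARS1, chr16:70289544-70289756, minus strand: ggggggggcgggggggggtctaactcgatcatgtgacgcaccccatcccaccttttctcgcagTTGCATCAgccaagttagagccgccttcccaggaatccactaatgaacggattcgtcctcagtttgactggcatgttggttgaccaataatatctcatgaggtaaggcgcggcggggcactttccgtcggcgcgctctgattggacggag
SARS1, chr1:109213668-109213917, plus strand: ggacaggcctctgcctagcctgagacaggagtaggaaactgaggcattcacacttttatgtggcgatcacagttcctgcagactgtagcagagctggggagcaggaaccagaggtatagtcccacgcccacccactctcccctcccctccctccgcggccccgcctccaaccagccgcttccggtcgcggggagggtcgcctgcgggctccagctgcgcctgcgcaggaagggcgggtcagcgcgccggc

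Library totals ran from 10.35 to 40.05 M estimated counts (median 23.83 M). The 10 epithelial markers checked all reached 1 CPM (counts per 1000000 of the TMM-scaled library total), with a summed level of 10006 to 13540 CPM per library. The 6 fibroblast markers summed to 1.54 to 2.99 CPM and the 4 endothelial markers to 0.922 to 2.68 CPM. Leukocyte markers summed to 1306 to 2246 CPM, nearly all of it from LYZ, a lysozyme gene also active in intestinal epithelium. Some libraries stood apart in ribosomal protein mRNA, a sign of RNA or library quality: 40 such genes lay a median of 0.46 (log2) above their group mean in aconite high 2, against -0.258 in aconite high 1 and -0.188 in aconite high 3. Banhasasim-tang high 2 (0.403) and vehicle 1 (0.216) were also high, and bupleurum medium 2 had the RNA RN7SL2 at 221 CPM, against 44.5 and 53.9 in the other bupleurum medium libraries. Results were recomputed without these 4 libraries.

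Cytosolic synthetase mRNAs were present at higher levels than mitochondrial ones in vehicle. Levels are compared between genes as CPM per kb of exon, using the exon lengths of GENCODE 29. The median was 29.5 CPM per kb over the 19 cytosolic genes and 7.71 over the 16 mitochondrial genes. Of the genes above the overall median, 16 were cytosolic and 1 was mitochondrial (IARS2, the mitochondrial isoleucyl enzyme).

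KARS1, the lysyl enzyme of both compartments, headed the order at 53.0 ± 1.7 CPM per kb (SD, n = 3 vehicle libraries). EPRS1, which charges glutamate and proline from a single fused protein, followed at 47.9 ± 1.57. The order ended, among cytosolic genes, with the histidyl gene HARS1 at 11.1 ± 0.281 and the cysteinyl gene CARS1 at 6.88 ± 0.25. Their places depend on long annotated exons, of 7853 and 10037 bases. In CPM the vehicle means were 87 for HARS1 and 69 for CARS1, beside 69.9 for FARSA and 78.3 for FARSB. Among mitochondrial genes, IARS2 at 31.2 ± 1.89 and the tyrosyl gene YARS2 at 15.6 ± 0.988 came highest, and the valyl gene VARS2 at 2.79 ± 0.0111 and the phenylalanyl gene FARS2 at 2.06 ± 0.0931 lowest. Of the 34 neighbouring pairs in the order, 20 overlapped in their vehicle libraries, so their places are not resolved. Over the 35 genes, the order in each of the other 21 groups correlated with that in vehicle at a rank correlation of 0.98 to 0.998, a description over genes that share exon lengths.

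**Figure D1:**
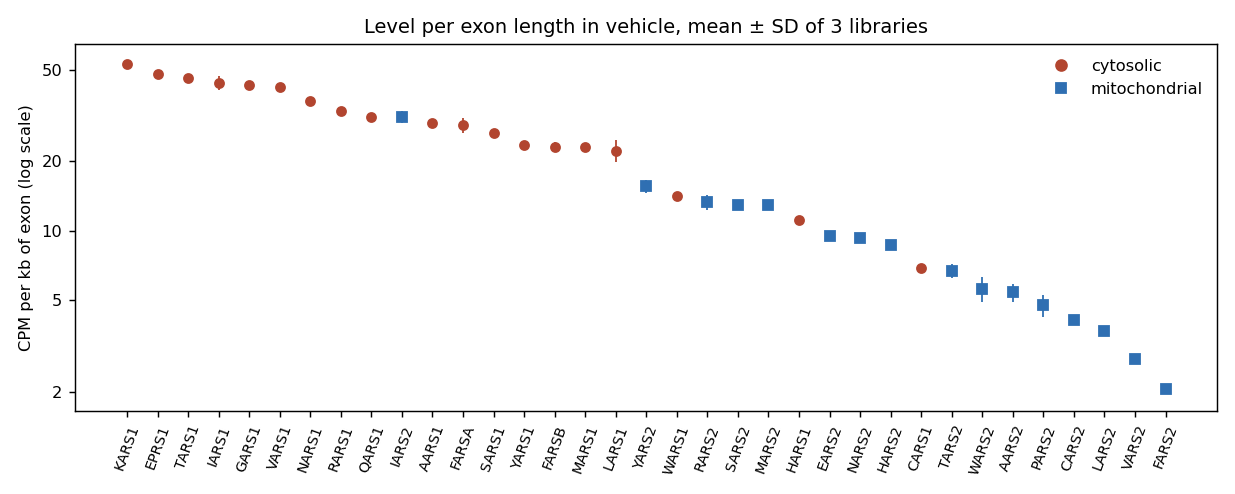
Level of each of the 35 synthetase genes in vehicle as CPM per kb of exon on a log scale (mean ± SD of 3 libraries), sorted from high to low, with cytosolic genes as circles and mitochondrial genes as squares. Cytosolic genes fill the upper places with IARS2 among them. On this scale, which depends on the annotated exon length, WARS1, HARS1 and CARS1 lie among the mitochondrial genes.

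Most cytosolic synthetase mRNAs were higher at the high dose of aconite, and 15 of the 16 mitochondrial ones were not called. Against its own low dose, from the same library set, 14 of 19 cytosolic genes and 1 of 16 mitochondrial genes were higher, and none (0) was lower, in edgeR's quasi-likelihood test with Benjamini-Hochberg adjustment over all genes (threshold 0.05). In this comparison 10.8% of all tested genes were called, 5.81% as higher. The median log2 fold change was 0.388 over the cytosolic genes, 0.069 over the mitochondrial genes and 0.0054 over all genes tested. Every mitochondrial gene but IARS2 had a lower CPM in vehicle than any cytosolic gene, so a change of a given size may be harder to call there. As these are bulk libraries, more RNA per cell and a changed mix of cells cannot be told apart. In the same comparison, of 10 epithelial markers CEACAM5 (0.908 ± 0.118) and KRT20 (0.22 ± 0.065) were higher and VIL1 (-0.258 ± 0.043) was lower, with summed levels of 11614 to 13540 CPM at the high dose and 11605 to 12680 CPM at the low dose. Of 6 fibroblast markers, 4 stayed under 1 CPM in every library and 2 were tested: LUM was higher, at 1.63 ± 0.86 CPM at the high dose and 0.785 ± 0.335 CPM at the low dose (SD, n = 3 each), and COL1A1 was not called (-0.423 ± 0.238). The fibroblast sum was 2.51 to 2.99 CPM at the high dose and 2.04 to 2.49 CPM at the low dose. The part of these markers in the synthetase changes was not tested.

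GARS1 (chr7:30594681-30634033, plus strand, GRCh38) encodes the glycyl enzyme of both compartments. It had 177, 177 and 182 CPM in vehicle, 192, 191 and 198 CPM at the low dose of aconite, 199, 201 and 202 CPM at the medium dose and 287, 340 and 299 CPM at the high dose. The 4 groups did not overlap, and the step to the high dose was the largest. High against low dose gave a log2 fold change of 0.674 ± 0.045 (SE, adjusted p = 6.21e-16, edgeR quasi-likelihood test). The 48 libraries of the other extracts lay between 173 and 196 CPM (median 183), below all 3 high-dose libraries.

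WARS1, the tryptophanyl gene, is also known for its induction by interferon gamma. It had 89.4, 90.8 and 90.4 CPM in vehicle, 95.1, 97.5 and 103 CPM at the low dose, 109, 101 and 111 CPM at the medium dose and 150, 144 and 150 CPM at the high dose. Only the low and medium dose overlapped. The log2 fold change of high against low dose was 0.585 ± 0.046 (adjusted p = 1.61e-13, edgeR quasi-likelihood test), and the other extracts' 48 libraries spanned 84.9 to 103 CPM.

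YARS1, the tyrosyl gene, had 187, 197 and 195 CPM in vehicle, 199, 202 and 207 CPM at the low dose, 214, 216 and 219 CPM at the medium dose and 278, 287 and 287 CPM at the high dose. Each dose lay above the one before with no overlap. High against low dose differed by 0.486 ± 0.038 on the log2 scale (adjusted p = 1.77e-13, edgeR quasi-likelihood test).

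AARS1, the alanyl gene, had 129, 132 and 137 CPM in vehicle, 134, 142 and 148 CPM at the low dose, 157, 147 and 148 CPM at the medium dose and 219, 222 and 211 CPM at the high dose. The high-dose libraries stood clear of the rest, while the low dose overlapped both of its neighbours. The log2 fold change of high against low dose was 0.619 ± 0.05 (adjusted p = 3.65e-13, edgeR quasi-likelihood test).

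**Figure D2:**
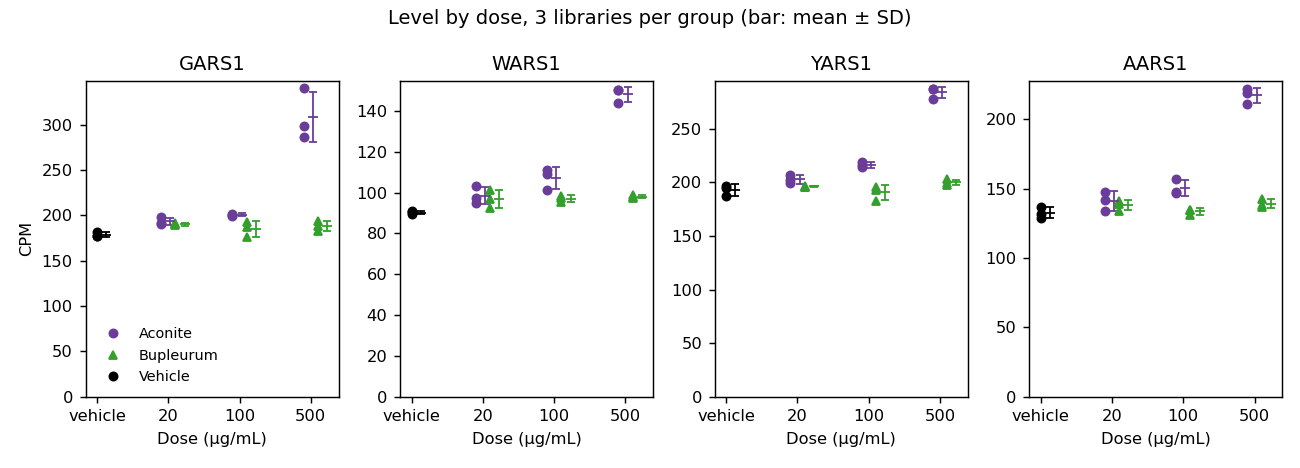
Level (CPM, axis from 0) of GARS1, WARS1, YARS1 and AARS1 in vehicle and at 20, 100 and 500 µg/mL of aconite (circles) or bupleurum (triangles), 1 point per library with the mean ± SD of 3 beside it. All aconite points at 500 µg/mL lie above every other point of their gene, and the bupleurum points stay near the vehicle level at each dose.

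SARS1, the seryl gene, changed most. It had 158, 223 and 164 CPM at the high dose against 103, 104 and 108 CPM at the low dose of aconite, a log2 fold change of 0.786 ± 0.071 (adjusted p = 7.74e-12). The library aconite high 2, whose ribosomal protein mRNA was high, was also the highest for SARS1, and without it the change was 0.61 (adjusted p = 7.54e-12, both by edgeR's quasi-likelihood test). CARS1 had 105, 109 and 108 CPM at the high dose against 71.2, 77.4 and 75.7 CPM at the low dose, and rose by 0.525 ± 0.051 (adjusted p = 6.78e-11, edgeR quasi-likelihood test). No high-dose library of either gene overlapped a low-dose one.

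The other free-standing cytosolic enzymes moved less evenly. NARS1, the asparaginyl gene, averaged 219 ± 44.3 CPM at the high dose and 156 ± 9.18 CPM at the low dose (SD, n = 3 each), and its log2 fold change of 0.486 ± 0.071 was 0.307 without aconite high 2, still past the threshold. TARS1, the threonyl gene, averaged 364 ± 54.7 CPM at the high dose and 275 ± 12.1 CPM at the low dose, and its change of 0.405 ± 0.06 was 0.272 without that library, also still called. FARSB, the beta subunit of the phenylalanyl enzyme, was higher by 0.242 ± 0.054, whereas FARSA, its alpha subunit, differed by 0.113 ± 0.079 (adjusted p = 0.388, edgeR quasi-likelihood test) and was not called. VARS1, the valyl gene, gave -0.019 ± 0.057 and HARS1 0.109 ± 0.052, neither called. In all, 9 of the 12 free-standing genes rose, with a median log2 fold change of 0.486.

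Members of the multisynthetase complex rose in 5 of 7 cases, with a median log2 fold change of 0.312. EPRS1 had 364, 363 and 368 CPM at the high dose against 274, 282 and 289 CPM at the low dose, a change of 0.374 ± 0.063. IARS1, the isoleucyl gene, averaged 466 ± 6.44 CPM at the high dose and 352 ± 6.83 CPM at the low dose (SD, n = 3 each). MARS1, the methionyl gene, averaged 241 ± 7.17 CPM at the high dose and 184 ± 7.61 CPM at the low dose. In these 3 genes every high-dose library exceeded every low-dose library. LARS1, the leucyl gene, was higher by 0.312 ± 0.07.

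KARS1 had 242, 273 and 237 CPM at the high dose against 214, 226 and 235 CPM at the low dose, and 215, 209 and 223 CPM in vehicle. Its high and low doses did not overlap, though the nearest libraries (237 and 235 CPM) were close, and the change of 0.158 ± 0.048 (adjusted p = 0.0261, edgeR quasi-likelihood test) was no longer called without aconite high 2 (0.09, adjusted p = 0.313) or without aconite low 1 or aconite low 2. QARS1, the glutaminyl gene, gave -0.061 ± 0.047 and RARS1, the arginyl gene, 0.158 ± 0.077, neither called. By catalytic fold, 6 of 9 class I and 7 of 9 class II cytosolic genes were higher, with medians of 0.388 and 0.405, and EPRS1 holds both folds. These textbook groupings were written down after the values were known.

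The fit rested on a spread shared by all 57 tested libraries. With the aconite high and low libraries alone in the fit, 5 genes remained called: GARS1, WARS1, YARS1, AARS1 and CARS1. Without the 4 libraries that stood apart, 13 of the 15 remained, and KARS1 and NARS2 did not.

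**Figure D3:**
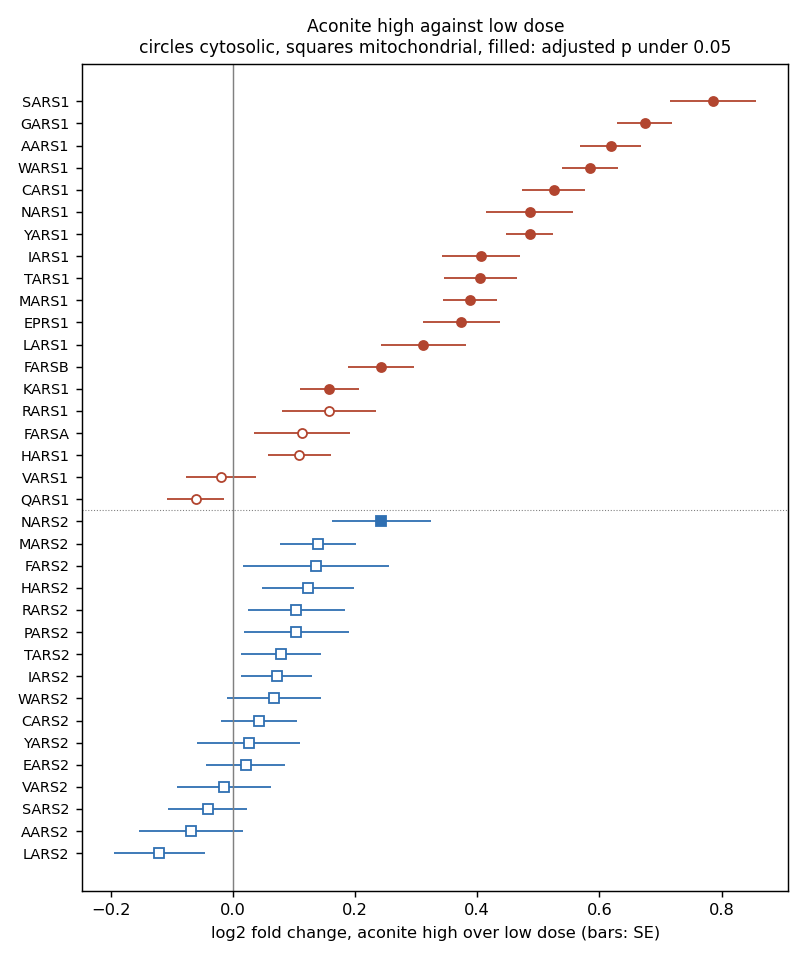
Log2 fold change (bars: SE) of each synthetase gene, aconite high over low dose, with cytosolic genes as circles above and mitochondrial genes as squares below, filled where the adjusted p is under 0.05. The cytosolic genes run from -0.061 (QARS1) to 0.786 (SARS1), and the mitochondrial genes from -0.12 (LARS2) to 0.243 (NARS2).

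Mitochondrial synthetase mRNAs showed little difference between aconite doses. NARS2, the mitochondrial asparaginyl gene, was called, with 29.5, 42.7 and 33.8 CPM at the high dose against 29.2, 29.5 and 30.2 CPM at the low dose. The groups overlapped, and the log2 fold change of 0.243 ± 0.081 (adjusted p = 0.0448) was 0.096 without aconite high 2 (adjusted p = 0.556, both by edgeR's quasi-likelihood test). Calls were also lost without any 1 of the low-dose libraries.

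IARS2 had 137, 159 and 140 CPM at the high dose against 136, 134 and 143 CPM at the low dose, and 127, 124 and 139 CPM in vehicle. YARS2, the mitochondrial carrier of TGATGNAA, had 32.7, 40.2 and 30.5 CPM at the high dose against 32.6, 31.9 and 36.3 CPM at the low dose. VARS2 had 29.9, 21.4 and 27.7 CPM at the high dose against 26.0, 26.4 and 28.3 CPM at the low dose. High and low dose overlapped in each of these genes, and aconite high 2 was the highest or the lowest library each time. FARS2 had 10.1, 14.9 and 10.3 CPM at the high dose against 9.02, 10.5 and 12.1 CPM at the low dose, which also overlapped.

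Summed over each compartment, the cytosolic genes made up 4073, 4461 and 4102 CPM at the high dose of aconite against 3162, 3278 and 3368 CPM at the low dose, and 2996, 3071 and 3158 CPM in vehicle. The sum over mitochondrial genes was 614, 661 and 620 CPM at the high dose against 593, 598 and 629 CPM at the low dose, and 568, 570 and 602 CPM in vehicle. The cytosolic sums at the high dose thus stood clear of those at the low dose, while the mitochondrial sums overlapped. Relative to the vehicle mean, the median cytosolic gene lay at a log2 ratio of 0.377, 0.512 and 0.372 in the 3 aconite high libraries, and between -0.037 and 0.162 in the 57 other libraries. For the median mitochondrial gene the ratios were 0.035, 0.136 and 0.085 in aconite high, and -0.051 to 0.104 elsewhere.

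**Figure D4:**
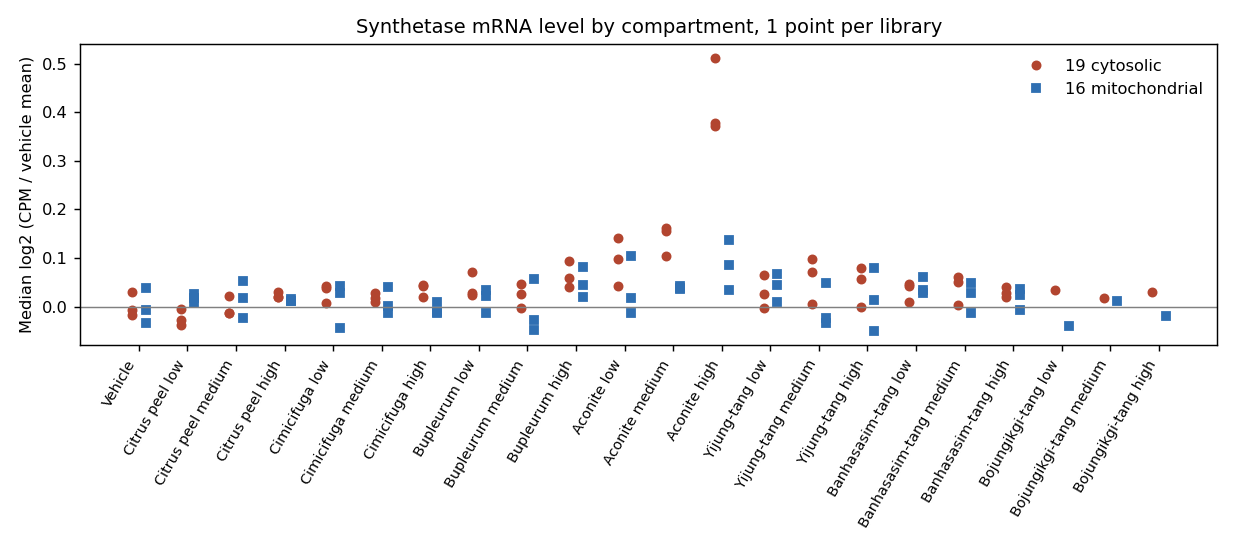
Median log2 ratio of CPM to the vehicle mean over the 19 cytosolic genes (circles) and the 16 mitochondrial genes (squares), 1 point per library, for vehicle and each extract from low to high dose. The cytosolic points of aconite high, at 0.372 to 0.512, lie above those of all other groups, the highest of which reaches 0.162 in aconite medium.

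For 13 amino acids the members held a cytosolic and a mitochondrial gene whose symbols differ only in the final digit. The same libraries thus give a ratio within each pair. Phenylalanine (FARSA, FARSB and FARS2), glutamate (EPRS1 and EARS2) and proline (EPRS1 and PARS2) also had members in both compartments. They were not paired, as their symbols do not match in this way. In 10 of the 13 pairs the cytosolic to mitochondrial ratio was higher in every aconite high library than in every aconite low library, and the exceptions were the histidyl, arginyl and valyl pairs. The median change of the ratio over the pairs was 0.335 on the log2 scale. It reached 0.817 for SARS1 over SARS2 and 0.708 for AARS1 over AARS2, and was 0.036 for RARS1 over RARS2, 0.019 for VARS1 over VARS2 and -0.011 for HARS1 over HARS2. HARS1 (chr5:140673904-140691862, minus strand) and HARS2 (chr5:140691426-140699318, plus strand) overlap by 437 bases at their starts, and the strand setting of the counting is not given in the sources used here, so their values may share reads.

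**Figure D5:**
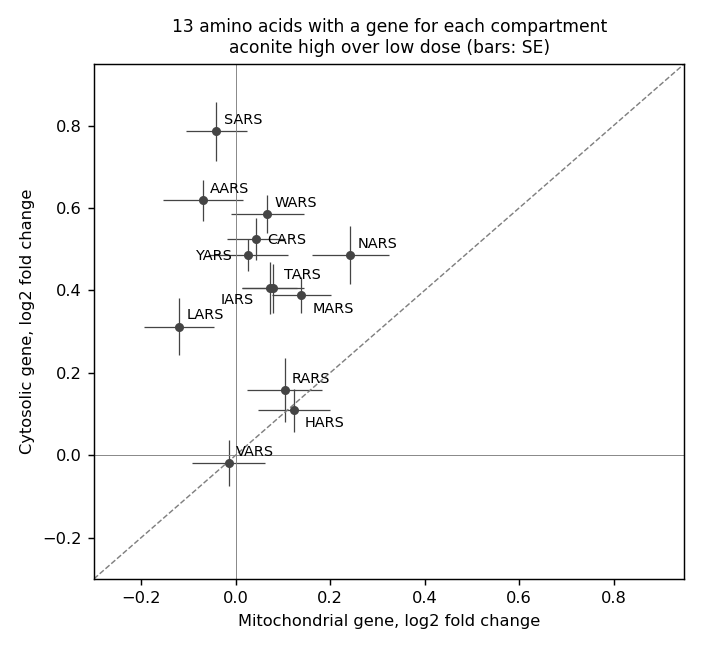
Log2 fold change of aconite high over low dose for the cytosolic gene (vertical axis) against that for the mitochondrial gene (horizontal axis) of the same amino acid, with SE bars and the line of equal change dashed. Pairs are named without their final digit. Points other than RARS, HARS and VARS lie well above the line.

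Against vehicle, aconite high gave 15 of 19 cytosolic and 2 of 16 mitochondrial genes higher and none (0) lower (15.9% of all genes called, 8.58% as higher). The changes were 0.791 ± 0.045 for GARS1, 0.713 ± 0.046 for WARS1, 0.558 ± 0.038 for YARS1, 0.711 ± 0.05 for AARS1, 0.64 ± 0.051 for CARS1 and 0.562 ± 0.044 for MARS1. HARS1 was called here, with 99.1, 113 and 90.5 CPM at the high dose against 88.6, 87.9 and 84.5 CPM in vehicle. This call was lost without aconite high 2 (0.115, adjusted p = 0.0926, edgeR quasi-likelihood test). The mitochondrial calls were MARS2, at 45.7, 42.4 and 47.8 CPM against 37.1, 38.9 and 40.8 CPM in vehicle with no overlap, and NARS2, which overlapped vehicle. MARS2 lost its call without vehicle 1 or aconite high 3 (adjusted p up to 0.0583), and NARS2 without any 1 of the vehicle libraries or without aconite high 2 (adjusted p up to 0.395, edgeR quasi-likelihood test). When only the compared groups were fitted, 7 genes were called: those 5, MARS1 and SARS1.

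At the medium dose of aconite, 8 cytosolic and 0 mitochondrial genes were higher than in vehicle (4.67% of all genes called, 2.47% as higher). MARS1 had 197, 188 and 197 CPM against 161, 167 and 162 CPM in vehicle, a change of 0.247 ± 0.044 (adjusted p = 0.000184). WARS1 was higher by 0.247 ± 0.046 (adjusted p = 0.000355), both by edgeR's quasi-likelihood test, and the calls of these 2 genes survived leaving out any 1 library. YARS1 (0.163 ± 0.038), GARS1 (0.17 ± 0.045), CARS1 (0.193 ± 0.051), AARS1 (0.181 ± 0.05), KARS1 and FARSB were also higher, without overlap, and each of them lost its call without vehicle 1 and without aconite medium 3. Leaving out 1 library at a time gave 2 to 7 calls, and without a filter on low counts or with the compared groups alone there were 2. At the low dose MARS1 alone was higher, by 0.174 ± 0.044 (adjusted p = 0.0265, edgeR quasi-likelihood test, 1.61% of all genes called, 0.698% as higher), with 176, 187 and 190 CPM against 161, 167 and 162 CPM in vehicle. That call was lost in 5 of 6 fits that left out 1 library.

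Set beside bupleurum at the same dose and in the same library set, aconite high again had the higher cytosolic levels. Of 19 cytosolic genes, 13 were higher and 0 lower, and 0 of 16 mitochondrial genes were called (9.86% of all genes called, 5.91% as higher, 1 mitochondrial gene at an unadjusted p under 0.05). SARS1 led with 0.848 ± 0.071, followed by GARS1 with 0.713 ± 0.045, AARS1 with 0.639 ± 0.05, WARS1 with 0.595 ± 0.046, CARS1 with 0.581 ± 0.051 and YARS1 with 0.505 ± 0.038. GARS1 had 287, 340 and 299 CPM in aconite high against 183, 194 and 188 CPM in bupleurum high. The fit with these groups alone called 5 genes, again GARS1, WARS1, YARS1, AARS1 and CARS1. FARSB lost its call without aconite high 2 (0.149, adjusted p = 0.107, edgeR quasi-likelihood test) and without bupleurum high 1.

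The change between doses was itself larger in aconite than in bupleurum for 11 cytosolic genes and for 0 mitochondrial genes (1.8% of all genes called, 1.01% as higher). The difference of the log2 fold changes was 0.69 ± 0.063 for GARS1, 0.568 ± 0.065 for WARS1, 0.458 ± 0.054 for YARS1, 0.605 ± 0.07 for AARS1, 0.564 ± 0.072 for CARS1 and 0.737 ± 0.1 for SARS1. Bupleurum high and low dose had 183, 194 and 188 against 190, 189 and 192 CPM of GARS1, and 97.4, 98.6 and 97.8 against 97.0, 92.5 and 101 CPM of WARS1, overlapping in both genes. With the 4 groups alone in the fit, the same 5 of the 11 were called.

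Outside aconite, 2 members were called in any comparison, and both were lower. FARS2, the mitochondrial phenylalanyl gene, fell with cimicifuga. It had 10.5, 10.4 and 9.33 CPM at the low dose, 8.86, 8.6 and 8.77 CPM at the medium dose and 6.89, 7.37 and 7.48 CPM at the high dose, so that each dose lay below the one before with no overlap. The high dose also lay below citrus peel high, with 10.4, 9.8 and 10.1 CPM, and below vehicle, with 9.77, 10.5 and 9.66 CPM.

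For FARS2, the log2 fold change of cimicifuga high was -0.468 ± 0.121 against low dose (adjusted p = 0.0429, 0.904% of all genes called, 0.485% as lower), -0.477 ± 0.118 against citrus peel high (adjusted p = 0.0316, 0.886% called, 0.249% as lower) and -0.465 ± 0.121 against vehicle (adjusted p = 0.0383, 1.33% called, 0.522% as lower), all by edgeR's quasi-likelihood test. Each call was lost when any 1 of its libraries was left out, while the change then stayed between -0.525 and -0.425. In the 51 libraries without cimicifuga, FARS2 ranged from 6.36 to 14.9 CPM (median 10.2), the lowest being Yijung-tang high 1. The change between doses was not called as different from that in citrus peel (-0.434 ± 0.167, adjusted p = 0.845, edgeR quasi-likelihood test, 0.115% of all genes called), where VARS1 came next at -0.176 ± 0.08.

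FARSA was lower in Yijung-tang medium, with 59.1, 58.3 and 53.0 CPM against 76.1, 66.1 and 67.6 CPM in vehicle, a log2 fold change of -0.296 ± 0.08 (adjusted p = 0.0438, edgeR quasi-likelihood test, 1.64% of all genes called, 0.989% as lower). The groups did not overlap. The call was lost in 5 of 6 fits that left out 1 library (vehicle 1, vehicle 2 or any 1 of the Yijung-tang medium libraries, adjusted p up to 0.409), without the 4 libraries that stood apart (-0.225, adjusted p = 0.053) and when only the compared groups were fitted. Banhasasim-tang, of the same library set, had 58.2 to 63.3 CPM in every library but Banhasasim-tang high 2, which had 73.4 CPM. Bojungikgi-tang, of another set, had 63.6, 55.4 and 63.3 CPM at the low, medium and high dose, and the 48 libraries of extracts other than aconite had a median of 63.2 CPM (53.0 to 75.6). Levels below those of vehicle were thus not confined to Yijung-tang.

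No member was called in the other 20 comparisons by edgeR's quasi-likelihood test. In those, 1 to 8 of the 35 genes had an unadjusted p under 0.05, and DESeq2 called 1 gene in 3 of them. For high against low dose, the shares of all genes called were 0.0667% in citrus peel, 0.297% in bupleurum, 0.103% in Yijung-tang and 0.231% in Banhasasim-tang. The members with the smallest p there were MARS2 (0.15 ± 0.061 on the log2 scale) and HARS1 (0.11 ± 0.051) in citrus peel, and MARS2 (0.131 ± 0.061) and TARS2, the mitochondrial threonyl gene (0.139 ± 0.065), in bupleurum. In Yijung-tang they were FARS2 (-0.386 ± 0.129) and SARS2 (-0.136 ± 0.067), and in Banhasasim-tang EPRS1 (-0.19 ± 0.064) and AARS2 (-0.241 ± 0.091). Single libraries carried much of these: without Yijung-tang high 1 the values were -0.196 for FARS2 and -0.083 for SARS2, and without Banhasasim-tang high 2, which stood apart, they were -0.096 for EPRS1 and -0.09 for AARS2. Banhasasim-tang high against Yijung-tang high (0.346% called) gave 0.372 ± 0.13 for FARS2 (0.188 without Yijung-tang high 1) and -0.127 ± 0.051 for AARS1 (-0.042 without Banhasasim-tang high 2). No gene was called for a difference between the dose changes of these formulas (0%), where FARS2 gave 0.543 ± 0.184 (0.361 without Yijung-tang high 1) and SARS2 0.211 ± 0.095.

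Against vehicle, 13 comparisons had no member called, and the members with the smallest p are given for each with the share of all genes called. Citrus peel gave YARS2 (-0.213 ± 0.084) and TARS2 (-0.121 ± 0.065, but -0.076 without vehicle 3) at the low dose (0.00607%), YARS2 (-0.212 ± 0.083) and LARS2 (0.141 ± 0.073) at the medium dose (0%), and MARS2 (0.143 ± 0.061) and VARS2 (0.147 ± 0.076) at the high dose (0.0243%). Cimicifuga gave YARS2 (-0.201 ± 0.085) and WARS1 (0.08 ± 0.046) at the low dose (0%), and YARS2 (-0.171 ± 0.084) and VARS2 (0.143 ± 0.077) at the medium dose (0.0303%). YARS2 thus recurred in 4 of these, in comparisons that share the same vehicle libraries. Bupleurum gave SARS2 (0.172 ± 0.064) and MARS1 (0.099 ± 0.044) at the low dose (0.801%), WARS1 (0.105 ± 0.046) and FARSB (0.119 ± 0.054) at the medium dose (0.406%), and MARS1 (0.149 ± 0.044) and LARS2 (0.207 ± 0.073) at the high dose (1.52%).

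Among the formulas, Yijung-tang gave FARSA (-0.276 ± 0.08) and TARS2 (-0.214 ± 0.068) at the low dose (1.51%), and FARSA (-0.199 ± 0.08) and NARS1 (0.15 ± 0.071) at the high dose (1.14%). Banhasasim-tang gave WARS1 (0.144 ± 0.047) and LARS2 (0.202 ± 0.077) at the low dose (2.92%), WARS1 (0.136 ± 0.046) and TARS2 (-0.182 ± 0.068) at the medium dose (3.11%), and TARS2 (-0.236 ± 0.068) and NARS1 (0.183 ± 0.071) at the high dose (1.21%). None of these values was past the threshold. Across the comparisons with vehicle, 16 of the 35 members were called in none.

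Bojungikgi-tang, with 1 library per dose and no test, changed no member by as much as 0.5 in absolute log2 ratio of CPM + 1 to the vehicle mean (0 of 35 at each dose). Over all genes, 1.94% passed that limit at the low dose, 3.79% at the medium dose and 3.18% at the high dose. The cytosolic medians were 0.034, 0.016 and 0.03 at the low, medium and high dose, and the mitochondrial medians -0.04, 0.008 and -0.018.

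Other genes of tRNA charging and translation were described from lists written for this purpose. The share of all genes called higher in aconite high against low was 5.81%. Of 15 partners of charging, 3 were higher in aconite high than low (median 0.193): XPOT, which exports transfer RNA from the nucleus, by 0.48 ± 0.058, DTD2, which removes wrongly joined amino acids from transfer RNA, by 0.35 ± 0.089, and YRDC, which takes part in a transfer RNA modification, by 0.302 ± 0.096. XPOT averaged 327 ± 12.6 CPM at the high dose and 235 ± 4.43 CPM at the low dose (SD, n = 3 each). Of 9 cytosolic elongation and termination factors, 0 were called and 3 had an unadjusted p under 0.05. Of 11 mitochondrial translation factors, MTIF2 (0.212 ± 0.057) and GFM1 (0.216 ± 0.059) were higher, with a list median of 0.116.

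Genes of the integrated stress response rose most in the same comparison. Of 28 genes listed, 27 were tested and 23 were higher, with a median log2 fold change of 0.906, where 5.81% of all genes were called higher. DDIT4, an inhibitor of mTORC1 signalling, averaged 72.5 ± 5.32 CPM at the high dose and 19.6 ± 0.112 CPM at the low dose (SD, n = 3 each). ASNS, asparagine synthetase, averaged 244 ± 56.0 CPM at the high dose and 60.3 ± 4.14 CPM at the low dose. PSAT1, of serine synthesis, rose by 1.384 ± 0.061 and CHAC1, which degrades glutathione, by 2.831 ± 0.145 on the log2 scale. In cimicifuga high against low, 5 of 27 genes of that list were called higher, among them SLC7A11 (0.729), in a comparison where 0.419% of all genes were called higher. None of the 19 cytosolic synthetases (0) was called there by edgeR, and 1 had an unadjusted p under 0.05, which at that share tells little about them.

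Interferon gamma response genes were listed because WARS1 answers to that signal. Of 12 tested, 3 were called lower and 0 higher in aconite high than low by edgeR's quasi-likelihood test (5.04% of all genes called lower), 11 lay below 0, and 4 had an unadjusted p under 0.05 in either direction. IRF9 (-0.889 ± 0.129) and GBP2 (-0.32 ± 0.091) were among those called lower. Against bupleurum high, 1 of the 12 was called higher, IRF1 (0.202 ± 0.067), and 0 lower (5.91% of all genes called higher). Against vehicle, aconite high had 1 of the 12 called lower and 0 higher (7.29% of all genes called lower). There 7 of the 12 lay above 0, with a median of 0.066. In aconite medium against vehicle 11 lay above 0, with a median of 0.186. Of 40 ribosomal protein genes 3 were higher in aconite high than low, where 5.81% of all genes were called higher. Their median was 0.247, and all 40 lay above 0. On group averages against low dose, this quality measure rose along with the synthetases in aconite high. Against vehicle the median of the 40 genes was 0.092 in aconite high, with 27 above 0 and 13 below. In aconite medium against vehicle, where 8 cytosolic synthetases were called higher, it was -0.209, with all 40 below 0. Within aconite high the measure lay at -0.258, 0.46 and -0.188 (log2) around the group mean in libraries 1, 2 and 3. The median cytosolic synthetase lay at 0.377, 0.512 and 0.372 relative to the vehicle mean in the same libraries. The part of this measure in the synthetase changes was not tested, and the cytosolic calls without aconite high 2 numbered 13 of the 19.

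Of the 16 cytosolic genes with a promoter window, 12 were higher in aconite high than low, where 5.81% of all genes were called higher. The 7 carriers of TGATGNAA were all among them, and the other 5 (SARS1, WARS1, EPRS1, FARSB and KARS1) had no match in the window, nor had the 4 that were not called. Of 22 stress response genes with a window, 5 had a match.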

How the data were processed

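RNA-seq was made from HT29 cells with a directional MGIEasy kit from 1 µg of total RNA with an RIN above 7 and read as 100 bp pairs on an MGIseq instrument, per the labels' protocols. The authors deposited estimated counts per gene. The submitters' processing notes name FastQC 0.11.9, Trim Galore 0.6.5, STAR 2.7.3a, RSEM 1.3.3 and GRCh38. For the annotation and the counting's strand setting the sources used here give nothing. Per the design text, an extract with strong toxicity had a lower top dose, while the labels give 500 µg/mL throughout, and the labels are used here.

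Estimated counts were rounded to whole numbers (8.68% of values were not whole) and 210 of 270 columns were not used. One model was fitted to 57 libraries in 19 groups with edgeR 4.0.16 (R 4.3.3, limma 3.58.1): filterByExpr, TMM scaling and the quasi-likelihood test, with Benjamini-Hochberg adjustment over 16484 genes in each of 30 comparisons and a threshold of 0.05. SEs were derived from the fold change and its F statistic. Bojungikgi-tang was not fitted. Tables and figures were made with Python 3.11.15, numpy 2.4.6, pandas 2.3.3 and matplotlib 3.10.9. In simulated data for aconite high against low, 30.9% of genes changed by 0.25 (log2), 83.3% by 0.5 and 100% by 1 were recovered. The genes changed there were taken from those with higher counts and were far fewer than the 1787 called in the real comparison. Depth was 10.35 to 40.05 M counts per library.

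Alternatives were DESeq2 1.42.0, its size factors, no filter on low counts, a replicate block, the compared groups alone, 4 libraries left out and each library left out in turn. The members, lists and groupings were chosen with earlier results of these data known. In each comparison up to 6 called members, those lowest in adjusted p, were named with their values, or, where none was called, the 2 with the smallest p, and others were named where their role or level called for it. A gene of the interferon gamma list is not reported here.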

Additional observations from a re-analysis of the deposited data

Results flagged for a closer look

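The change between high and low dose differed between aconite and bupleurum, 2 extracts of the same library set, for 11 synthetase genes, all cytosolic, by an interaction term in edgeR's quasi-likelihood fit with Benjamini-Hochberg adjustment. The difference was positive, that is larger in aconite, in all 11. On the log2 scale it was 0.69 for GARS1 (adjusted p = 6.21e-11), 0.568 for WARS1 (3.18e-08), 0.605 for AARS1 (4.74e-08), 0.458 for YARS1 (6.39e-08), 0.564 for CARS1 (3.93e-07) and 0.737 for SARS1 (1.62e-06). It was 0.339 for MARS1 (adjusted p = 0.00042, edgeR), 0.463 for NARS1 (0.0039), 0.379 for TARS1 (0.0063), 0.371 for IARS1 (0.0156) and 0.363 for EPRS1 (0.0173). Calls of 3 of these genes were lost without a single library: TARS1 gave 0.244 without aconite high 2 (adjusted p = 0.0506, edgeR), IARS1 missed the threshold without bupleurum high 1 (0.0527) and EPRS1 without aconite low 1 (0.052).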

How the results depend on the processing

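No called member changed the direction of its log2 fold change under any alternative run. This was checked for called members only, and a count of calls has no direction that could change. Counts that moved by more than 1.5 times were these. When only the compared groups were fitted, which leaves fewer libraries to estimate the spread, aconite high had 7 calls against vehicle, 5 against low dose, 5 against bupleurum high and 5 in the difference from bupleurum, aconite medium had 2, and aconite low and Yijung-tang medium had 0. Without a filter on low counts, aconite medium had 2 calls, aconite low 0 and Yijung-tang low 1. DESeq2 gave 1 each for bupleurum high, Yijung-tang low and Banhasasim-tang low, and 2 for cimicifuga high against citrus peel high. Without the 4 libraries, Yijung-tang medium had 0, Banhasasim-tang high 1 and cimicifuga high against citrus peel high 2. The cause of these moves was not tested.

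Of 27 comparisons checked for pairing, 0 had every correlation between same-numbered libraries above 0.1. Single correlations ran from -0.712 to 0.641, and in Yijung-tang high against low all 6 libraries lay closest to their own number. Some same-numbered libraries did shift together. RN7SL2 was higher in the libraries numbered 3 of citrus peel and cimicifuga. It had 102 CPM in citrus peel high 3 against 5.58 and 9.9 CPM in libraries 1 and 2. In cimicifuga high 3 it had 77.4 CPM against 4.26 and 4.5 CPM. A replicate block gave 1 call for bupleurum high and 1 for Banhasasim-tang high against vehicle, 2 for Yijung-tang low and 2 for cimicifuga high against citrus peel high.

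Leaving out 1 library at a time gave, for aconite, 15 to 19 calls at the high dose against vehicle, 13 to 17 against low dose, 12 to 15 against bupleurum high, 10 to 12 in the difference from bupleurum, 2 to 7 at the medium dose and 0 to 1 at the low dose. It gave 0 to 0 in all 3 cimicifuga comparisons with a call, 0 to 1 for Yijung-tang medium, Yijung-tang low and Banhasasim-tang high, and 0 to 4 for Banhasasim-tang high against low. In the simulated data, most changes of 0.25 on the log2 scale were missed. Far fewer genes were changed there than were called in aconite high against low, where KARS1 was called at 0.158, so that share need not hold. Changes of that size in other genes may still not have been detectable at this depth and number of libraries.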

Other observations

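Several members differed within the high dose of aconite, between the library aconite high 2 and the other 2 libraries of that dose, and they were picked after their values were seen. Its level divided by the mean of aconite high 1 and aconite high 3 ran over the 35 members from 0.744 to 1.48. The highest ratios were 1.48 for RARS1, 1.46 for FARS2, 1.41 for HARS2, 1.4 for NARS1, 1.39 for SARS1, 1.36 for RARS2 and 1.35 for NARS2. The lowest were 0.744 for VARS2, 0.772 for LARS2, 0.813 for AARS2, 0.856 for EARS2 and 0.859 for VARS1.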
